A study of Mus musculus with 2 samples.

Results

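The keratin genes (Krt) and the keratin-associated protein genes (Krtap) were examined for contact with an enhancer upstream of Pou5f1 in mouse embryonic stem (ES) cells. Members were all protein-coding genes of the GENCODE M1 annotation of the mm9 assembly whose symbol was Krt followed by a digit or began with Krtap. This gave 97 genes, 51 Krt and 46 Krtap, of 21259 protein-coding genes outside chromosome 17, which carries the bait, and chromosome Y. The data came from 1 group, the E14 line of ES cells grown with LIF, with no treatment, no control and 2 replicates per the labels. Enzyme-based 4C-Seq was used, in which fixed chromatin is cut with HindIII, ligated, cut again with DpnII, and the DNA joined to the bait is amplified and sequenced. Each replicate is a list of enriched interacting regions, and a further list gives contacted HindIII sites (AAGCTT) in reproducible regions. Off chromosome 17 its 590 sites all lay in regions of replicate 1, and 82 of them lay outside those of replicate 2. The lists hold positions only, so the read depth behind a region or site is unknown.

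Keratins are the intermediate filament proteins of epithelia. A filament is built from pairs of a type I (acidic) and a type II (basic to neutral) keratin, and the genes of each type lie side by side in a cluster of their own. Keratin-associated proteins are small, cysteine-rich or glycine- and tyrosine-rich proteins that form the matrix around hair keratin filaments, and their genes also lie in tandem groups. Most of these genes are used in epidermis, hair follicle or internal epithelia. Expression was not measured in these samples, so whether the genes were silent in these ES cells could not be checked.

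The members fell into 5 loci when genes at most 0.5 Mb apart were joined. The locus of chromosome 11 (chr11:99094075-100131185, mm9) held 49 members from Krt222 to Krt42, namely 27 Krt and 22 Krtap genes, in 1.04 Mb. The locus of chromosome 15 (chr15:101177875-101862457) held 24 Krt genes from Krt80 to Krt18 in 0.685 Mb, and these were type II keratins apart from Krt18, which is type I, and Krt72-ps, whose symbol marks a pseudogene. The locus of chromosome 16 (chr16:88610954-89571428) held 19 Krtap genes from Krtap24-1 to Krtap11-1 in 0.961 Mb. Chromosome 7 held 4 genes of the Krtap5 group, from Krtap5-2 to Krtap5-4, in 0.13 Mb (chr7:149360437-149490408). Chromosome 10 held Krtap12-1 alone (chr10:77183331-77184001). All 4 loci with more than 1 member were dense in genes. Protein-coding gene starts numbered 80.0 per Mb on chromosome 11, 69.3 on chromosome 7, 40.9 on chromosome 15 and 34.4 on chromosome 16, beside 8.36 per Mb over the chromosomes examined. Part of this density came from genes that the symbol rule left out, 34 starts on chromosome 11, 14 on chromosome 16, 5 on chromosome 7 and 4 on chromosome 15. All but 1 of these carried provisional symbols. RefSeq lists 4 of them under Krt or Krtap symbols, 1 on chromosome 11 and 3 on chromosome 15, and the others were not assigned to a family here.

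Chromosome 16 carried the only locus with more than 1 member that was called in both replicates. Shown for it are the listed sites nearest to the Krtap span on each side, both outside the locus, and, between them, an unlisted motif close to the middle of the span whose flanks occur beside no other HindIII motif. All are 66 bases of mm9, plus strand, with the HindIII motif in capitals. None of them lies in an annotated protein-coding gene.
Before the span, chr16:88508103-88508168: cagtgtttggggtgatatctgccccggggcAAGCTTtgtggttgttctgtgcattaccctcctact
Middle of the span, not listed, chr16:89091026-89091091: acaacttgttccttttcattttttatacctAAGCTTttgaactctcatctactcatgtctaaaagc
After the span, chr16:89576675-89576740: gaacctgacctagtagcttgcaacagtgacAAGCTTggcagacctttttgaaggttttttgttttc

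The sites around Krtap12-1 are shown for the same reason, since that gene was also inside a region of both replicates. The first lies in a non-exonic part of Pttg1ip and the second in a non-exonic part of C330046G03Rik.
Before Krtap12-1, chr10:77048793-77048858: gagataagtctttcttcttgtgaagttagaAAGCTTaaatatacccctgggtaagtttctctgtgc
After Krtap12-1, chr10:77326255-77326320: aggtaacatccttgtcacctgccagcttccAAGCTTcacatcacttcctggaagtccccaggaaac

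The loci differed from one another, and the replicates differed at the keratins. In replicate 1, 24 of 97 members (24.7%) overlapped an enriched region by at least 1 bp, beside 17.9% of all 21259 genes. In replicate 2, 44 of 97 (45.4%) did, beside 20.2% of all genes. In both replicates, 20 of 97 (20.6%) did, beside 10.1% of all genes. The share averaged 35.1% ± 14.6 (SD, n = 2) over members and 19.1% ± 1.62 (SD, n = 2) over all genes, so the gap between the means was close to the SD of the members. Members of a locus share a window and are not independent, so these shares rest on 5 loci, and no test was made. Every locus was either wholly inside or wholly outside the regions of a replicate.

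Calls followed the locus, and the families differed through the loci that hold them. None of the 51 Krt genes was in a region of replicate 1, and 24 of 51 (47.1%) were in a region of replicate 2. Of the 46 Krtap genes, 24 (52.2%) were in a region of replicate 1 and 20 (43.5%) in a region of replicate 2, and those 20 were in both. The members in both lists were thus Krtap genes only, 19 on chromosome 16 and Krtap12-1 on chromosome 10. The 4 Krtap5 genes were in replicate 1 only, the 24 keratin genes of chromosome 15 in replicate 2 only, and the 49 genes of chromosome 11 in neither. The map of enriched regions around the loci shows these patterns.

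**Figure D1:**
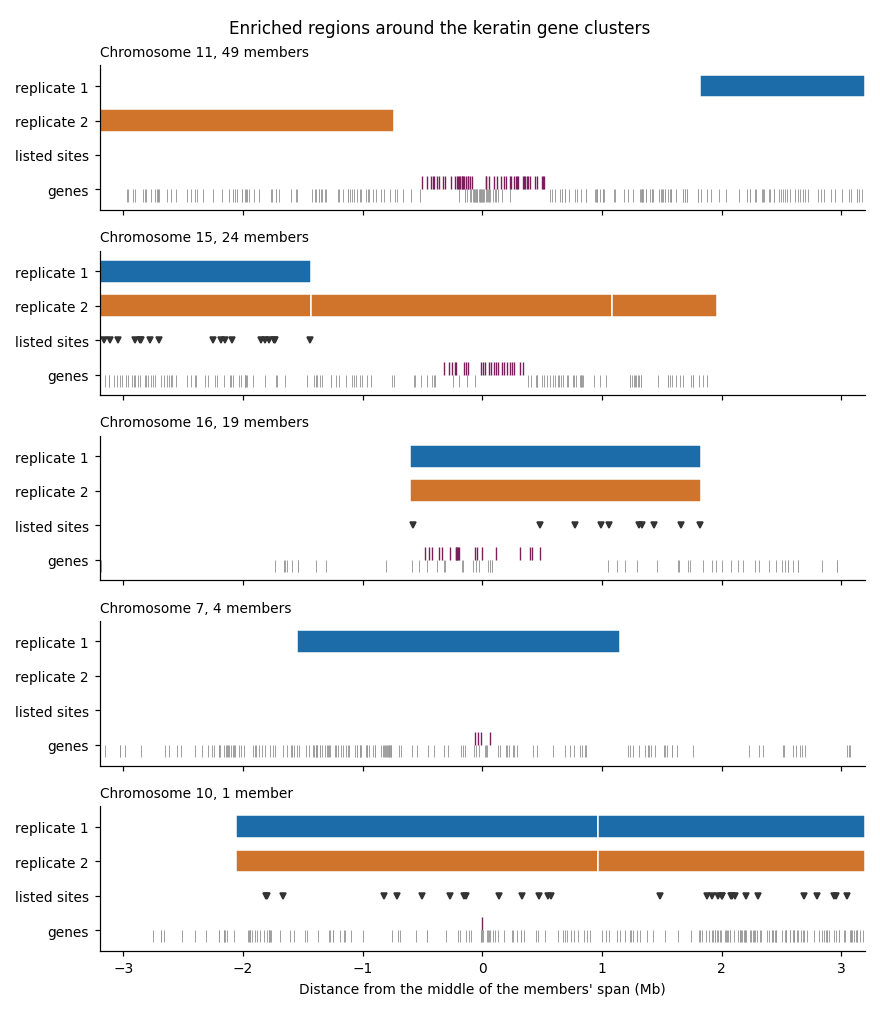
Enriched regions of replicate 1 (blue) and replicate 2 (orange), listed HindIII sites (triangles) and starts of members (purple) and of other protein-coding genes (grey), plotted against distance in Mb from the middle of each members' span, with white lines between adjoining regions. Only the loci of chromosomes 16 and 10 lie under regions of both replicates, and the 49 members of chromosome 11 lie between a region of replicate 2 and a region of replicate 1.

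The type I cluster of chromosome 11 was in no region of either replicate. It holds the genes of epithelial type I keratins (13 members), of the inner root sheath of the hair follicle (Krt25 to Krt28, 4 members), of hair type I keratins (9 members) and Krt222, with the 22 Krtap genes in the middle. The nearest region of replicate 1 lay on the Krt42 side, and the nearest region of replicate 2 on the Krt222 side. Krt42 was 1.30 Mb from a region of replicate 1 and 1.25 Mb from a region of replicate 2. Krt222, at the opposite end, was 2.33 Mb and 0.222 Mb away. Krt10, the type I keratin of differentiating epidermal layers, was 2.18 Mb from a region of replicate 1 and 0.375 Mb from one of replicate 2. Krt14, the type I keratin of basal epidermal cells, was 1.36 Mb and 1.19 Mb away. Over the 49 members the median distance was 1.79 Mb in replicate 1 and 0.769 Mb in replicate 2.

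The gap between the regions around this cluster was about as large as a typical region. The uncalled stretch (chr11:98871652-101432992) held 693 motifs in 2.56 Mb, beside a median of 734 motifs in the 139 called regions outside chromosome 17. This stretch was also dense in genes. It held 145 gene starts, or 56.6 per Mb, 49 of them (33.8%) members, and 0 of the 139 called regions had more gene starts per Mb (range 0.907 to 39.2, median 13.7). With the members left out its density was 37.5 per Mb. The genes that flank the cluster were uncalled too. Smarce1, a subunit of the BAF chromatin remodelling complex, was 2.34 Mb from a region of replicate 1 and 0.199 Mb from one of replicate 2, and Eif1, a translation initiation factor, was 1.25 Mb and 1.31 Mb away. Jup, which encodes plakoglobin of the desmosome and lies past Eif1, was 1.17 Mb and 1.36 Mb away.

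The type II cluster of chromosome 15 was inside a region of replicate 2 and outside the regions of replicate 1. The region of replicate 2 (chr15:100087141-102601910) held all 24 members, 684 motifs and 82 gene starts, 32.6 per Mb. It held the 14 type II keratins of epithelia, the 3 of the inner root sheath and the 5 of hair alike, with Krt72-ps and Krt18. By position the first of them were Krt80, Krt7, Krt83, Krt81, Krt86, Krt84, Krt82, Krt75 and Krt6b, a mixture of epithelial and hair keratins. In replicate 1 the distance to the nearest region was 1.09 Mb for Krt80, the nearest member, and 1.77 Mb for Krt18, the farthest, with a median of 1.49 Mb. Krt5, the partner of Krt14 in basal epidermis, was 1.45 Mb away and Krt1, the partner of Krt10, 1.59 Mb. The region next to it, towards Krt80, was called in both replicates, and its last listed site lay 1099 kb from Krt80, in a non-exonic part of Atf1, which encodes a factor of the CREB family. The neighbours 6030408B16Rik and Eif4b, a translation initiation factor gene, were likewise in a region of replicate 2 and 1.04 Mb and 1.82 Mb from a region of replicate 1. That site, 66 bases of the plus strand with HindIII in capitals, is the nearest contact listed to any type II keratin gene.
In Atf1, chr15:100079070-100079135: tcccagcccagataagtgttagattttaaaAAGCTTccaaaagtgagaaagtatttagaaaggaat

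Krt8 and Krt18 are set apart because they pair in simple epithelia and are among the first keratins made by the embryo. They are neighbours at the end of the type II cluster. Krt8 was 1.74 Mb from a region of replicate 1 and inside a region of replicate 2, and Krt18 was 1.77 Mb away and inside. Their calls were therefore those of the other 22 members of that cluster. Without the pair, 24 of 95 members (25.3%) were in regions of replicate 1 and 42 of 95 (44.2%) in regions of replicate 2. Krt8 holds no HindIII motif, the nearest being 2.68 kb away, and Krt18 holds 2. The nearest motif to Krt8 and the first of Krt18, which lies in an intron, are shown as the cut sites closest to this pair, on the plus strand with HindIII in capitals.
Beside Krt8, chr15:101837427-101837492: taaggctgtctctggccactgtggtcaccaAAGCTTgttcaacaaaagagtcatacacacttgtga
In Krt18, chr15:101860753-101860818: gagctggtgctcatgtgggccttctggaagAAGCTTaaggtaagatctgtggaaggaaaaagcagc

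The Krtap5 genes of chromosome 7 showed the opposite pattern to chromosome 15. Krtap5-2, Krtap5-3, Krtap5-5 and Krtap5-4 were in a region of replicate 1 (chr7:147877938-150576018; 702 motifs, 33.0 gene starts per Mb). In replicate 2 the nearest region was 8.19 Mb from Krtap5-2 and 8.32 Mb from Krtap5-4. This was the longest distance of any member in either replicate. The flanking genes Gm4553 and 6330512M04Rik gave the same calls, 0 Mb in replicate 1 and 8.18 Mb and 8.34 Mb in replicate 2.

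The Krtap cluster of chromosome 16 was inside a region called in both replicates with the same limits (chr16:88485445-90916301, 2.43 Mb). Of the 44 gene starts in this window, 19 (43.2%) were members. The window was less dense than those of the other clusters, at 18.1 gene starts per Mb, and 52 of the 139 called regions were denser. With the members left out the window had 10.3 per Mb, beside a median of 13.7 over the called regions with all genes counted. The list of contacted sites covers this window, so that the place of the contacts within it could be read. The window held 744 HindIII motifs, of which 10 (1.34%; exact 95% interval 0.646 to 2.46) were listed. In all 34 windows called in both replicates outside chromosome 17, 508 of 25606 motifs (1.98%) were listed, and the share in single windows ran from 0.595% to 3.45%. The window of chromosome 16 was within that range. Intervals cover counting error only.

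No listed site lay in the Krtap span itself. The span from Krtap24-1 to Krtap11-1 held 316 motifs and 0 listed sites, which allows a share of up to 0.949% by 3 counts and up to 1.16% by the exact 95% interval. The rest of the window held 10 listed sites among 428 motifs (2.34%; exact 95% interval 1.13 to 4.25). Of motifs with unique flanks of 30 bases, 0 of 274 in the span (exact upper limit 1.34%) and 10 of 403 outside it (exact 95% interval 1.20 to 4.52) were listed. In both counts the limit by 3 counts lies below the interval outside the span, and the exact upper limit lies just inside it. The window was called for its contacts, and all 10 listed sites lie outside the span. The share outside is therefore no independent scale, and these limits do not show that the span is depleted. The difference in share itself was not tested. One listed site lay before the span, 0.91 kb from the start of Cldn17, a tight junction gene. The other 9 lay after the span. Of these, 1 was 5.28 kb from Krtap11-1, 2 were in Tiam1, which encodes an exchange factor for Rac, and 2 in Hunk, a kinase gene. The remaining sites were 1 in Mrap, which encodes a partner of the melanocortin receptors, and 3 between genes. Cldn8, another tight junction gene and the first gene before the span (47.5 kb), held none of its 2 motifs in the list, whereas Tiam1, the first gene after it (216 kb), held 2 of 91.

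**Figure D2:**
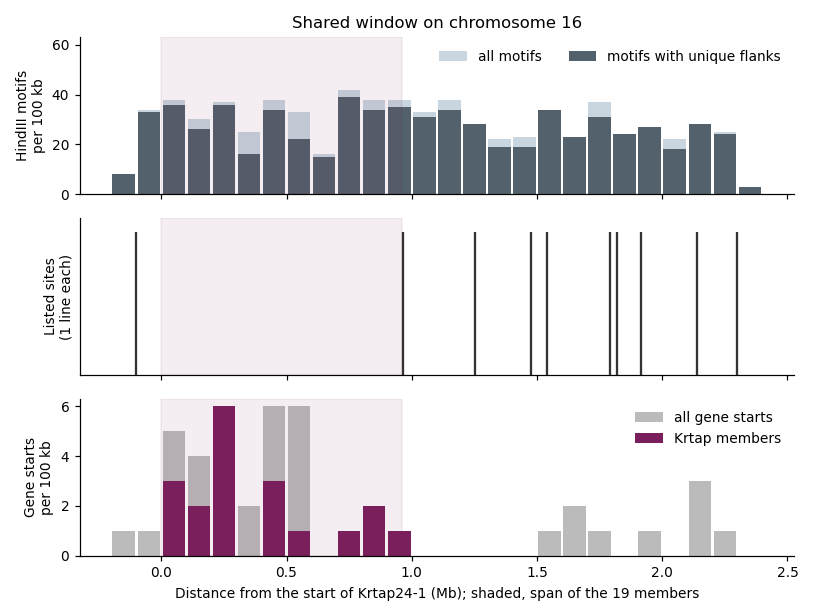
HindIII motifs per 100 kb (top), listed sites (middle, 1 line each) and gene starts per 100 kb (bottom) against distance in Mb from the start of Krtap24-1, in the window of chromosome 16 called in both replicates, with the span of the 19 members shaded. The span holds 316 motifs and 33 gene starts but 0 listed sites, and the 10 listed sites lie 1 before and 9 after it.

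The site-free stretch around the span ran 1.07 Mb, from 102.8 kb before Krtap24-1 to 5.28 kb past Krtap11-1, and its 2 bordering sites are those printed above. It held 355 motifs and 34 gene starts. Among the longest gaps between 2 listed sites in each of the 34 shared windows (0.243 to 1.62 Mb, median 0.542), it was the 4th longest and held the most gene starts. The longer gaps were on chromosomes X (1.62 Mb, 32 gene starts), 10 (1.23 Mb, 27 gene starts) and 19 (1.19 Mb, 14 gene starts). When stretches that run to a window's end were counted too, those of chromosomes 12 (1.30 Mb) and 3 (1.14 Mb) were also longer, and it was the 6th. The order of these stretches is a description, since windows hold different numbers of motifs and sites.

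Krtap12-1 on chromosome 10 was likewise in a window called in both replicates (chr10:75124454-78149964) with 14 listed sites among 748 motifs (1.87%; exact 95% interval 1.03 to 3.12). It lay 134.5 kb from the listed site in Pttg1ip and 142.3 kb from that in C330046G03Rik. The 0.277 Mb between these sites held 67 motifs and 14 gene starts.

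Members were farther from listed sites than most genes of the shared windows. Of the 20 members in windows called in both replicates, 3 (15.0%) had a listed site within 100 kb, beside 74.6% of all 2146 genes there. The 3 were Krtap8-1 (88.5 kb), Krtap7-1 (68.1 kb) and Krtap11-1 (5.28 kb), at the end of the chromosome 16 span. The median distance was 277.6 kb over the members (range 5.28 to 528.6 kb), with Krtap16-8 the farthest, and 40.4 kb over all genes. Krtap genes are short, with a median body of 0.607 kb over these members. Among the 922 genes there that were no longer than the longest of the chromosome 16 members and were not members, 73.5% had a site within 100 kb, with a median distance of 43.2 kb. These genes were still longer than the members, with a median body of 4.07 kb. Of these 20 members 19 lie in 1 stretch, so the share describes 2 loci.

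**Figure D3:**
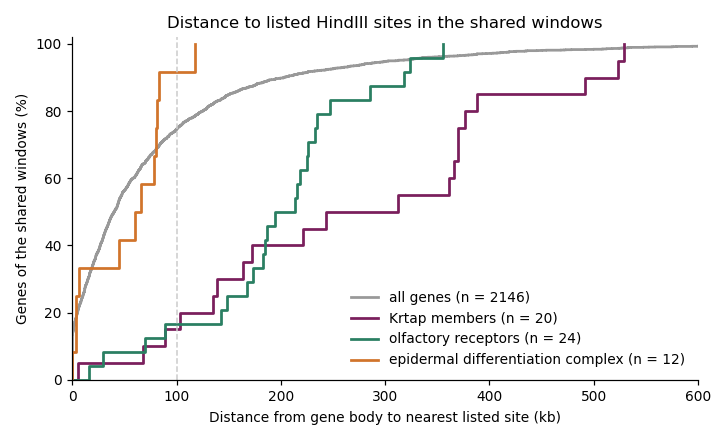
Cumulative share of genes (%) against the distance in kb from the gene body to the nearest listed HindIII site, for genes of the windows called in both replicates, with a dashed line at 100 kb. At 100 kb, members (purple, 15.0%) and olfactory receptors (green, 16.7%) lie below all genes (grey, 74.6%), and the 12 genes of the epidermal differentiation complex in these windows (orange, 91.7%) do not.

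No member held a listed site, on any chromosome. This is a measurement only for the 10 of the 19 members of chromosome 16 that hold a HindIII motif, and a weak one. Their bodies hold 16 motifs in all, and a count of 0 among these allows a share of motifs of up to 18.8%. In the shared windows 1.98% of motifs were listed. Counted by gene, a different measure, 289 of all 2146 genes there (13.5%) held a listed site. Those 2146 genes had a median body of 10.9 kb, beside 0.607 kb for the 20 members. Krtap12-1 holds no motif and could not be listed. The loci of chromosomes 7, 11 and 15 lie outside the runs of adjoining replicate 1 regions that the site list covers, so that a count of 0 there says nothing. HindIII motifs numbered 298 per Mb in the locus of chromosome 11, 276 on chromosome 15, 329 on chromosome 16 and 423 on chromosome 7, beside 312 per Mb over the chromosomes examined. Of these, 92.2%, 93.1%, 86.7% and 80.0% had unique flanks, beside 84.4% overall. Single members were small targets, and 43 of 97 held no motif, the farthest from one being Krt39, a hair keratin gene, at 6.07 kb.

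Flanks that also occur beside another HindIII motif of the genome were found at 24 of 309 motifs on chromosome 11, 13 of 189 on chromosome 15, 42 of 316 on chromosome 16 and 11 of 55 on chromosome 7. Motifs that shared a flank with another motif of the same locus numbered 12 on chromosome 11, 6 on chromosome 15, 23 on chromosome 16 and 4 on chromosome 7. A pair on chromosome 11 is shown because 1 flank of each is the same in opposite orientation, so that a read from that flank matches both. Both are on the plus strand outside protein-coding genes, with HindIII in capitals.
First motif, chr11:99449240-99449305: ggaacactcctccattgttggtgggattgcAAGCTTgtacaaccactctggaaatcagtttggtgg
Second motif, chr11:99752520-99752585: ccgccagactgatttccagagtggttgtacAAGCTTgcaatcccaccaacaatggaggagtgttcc

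Other gene families gave a scale for these shares. The epidermal differentiation complex on chromosome 3 had 59 gene models of 55 symbols, Flg (filaggrin) being annotated as 5, and 12 models (20.3%) were in regions of both replicates. The complex was split: the 12 were 11 of its 13 S100 genes and Pglyrp4, at one end, while 0 of 33 symbols of the cornified envelope (Lor, Ivl, Flg and the Sprr and Lce genes) were in a region of either replicate, the nearest being 0.335 Mb away. Hox genes, which lie in 4 clusters, were in regions at 12 of 40 gene models in replicate 1 and 24 of 40 in replicate 2, with Hoxa3 annotated as 2 models. The 13 kallikreins of chromosome 7 were all in replicate 1 and none in replicate 2, which is the whole-cluster pattern of the Krtap5 genes. Olfactory receptors, the largest clustered family, were in regions at 3.66% and 3.76% of 1038 genes. Type 1 vomeronasal receptors were at 1.58% and 7.37% of 190 genes, type 2 at 12.6% and 5.75% of 87, and beta-defensins at 0 of 41 in both. Histone genes were at 0 and 10 of 67. In the shared windows, 4 of 24 olfactory receptors (16.7%) had a listed site within 100 kb, beside 11 of the 12 S100 and Pglyrp4 genes of the epidermal differentiation complex and 12 of 12 Hox gene models (11 symbols). The share of the members was thus near that of the olfactory receptors.

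**Figure D4:**
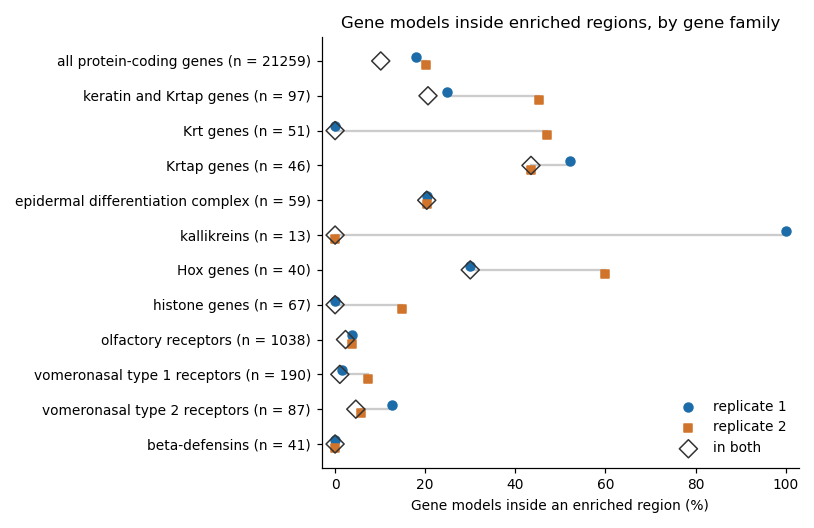
Share of gene models (%) whose body overlaps an enriched region of replicate 1 (blue circles), replicate 2 (orange squares) or both (open diamonds), by gene family, with the number of models in each. The keratin and Krtap genes together are at 24.7% and 45.4%, all genes at 17.9% and 20.2%, and the kallikreins, a single cluster, at 100% and 0%.

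Genes of the desmosome, of other intermediate filaments and of the cornified envelope and hair were spread over the genome and gave mixed calls. These lists were too small to set apart from the 17.9% and 20.2% of all genes. Of 10 genes of the desmosome plaque and the plakins, which anchor keratin filaments, 2 were in regions of replicate 1, 4 of replicate 2 and 1, Pkp2, of both. Of 15 genes of other intermediate filaments, 6 were in replicate 1, 4 in replicate 2 and 3 in both, namely Lmnb2 (a nuclear lamin), Nefh (a neurofilament subunit) and Prph (peripherin). Prph lies on chromosome 15 in the region that adjoins that of the type II keratins. Of 12 genes of the cornified envelope and of hair regulation, 2 were in each replicate, and Tgm1, a transglutaminase that cross-links the envelope, was in both. Hoxc13, a regulator of hair keratin genes, was in a region of replicate 2 and 2.66 Mb from a region of replicate 1.

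Each cluster with more than 1 member was set beside stretches of equal gene density. Between 31.8% and 50.0% of these were in a region of a given replicate, and 2 of the 4 clusters were. A stretch had the length of the cluster, a number of gene starts within 25% of that of the cluster and no member, and stretches did not overlap each other. The scan kept the first position within this limit, so stretches often held fewer gene starts than the cluster. They held 21 to 35 starts beside 28 for chromosome 15 and 25 to 41 beside 33 for chromosome 16, with many at the lowest number. For chromosome 7 they held 7 to 11 beside 9. For the chromosome 15 cluster 248 such stretches were found, of which 33.1% overlapped a region of replicate 1 and 36.3% a region of replicate 2, where the cluster was out and in. For the chromosome 16 cluster there were 236 stretches, at 32.2% and 38.6%, and 22.5% in both, where the cluster was in both. For the Krtap5 locus of chromosome 7 there were 582, at 31.8% and 37.1%, where the locus was in and out. For chromosome 11 only 8 stretches came within the limit, with 63 or 64 gene starts beside 83 in the cluster. Of these, 3 overlapped a region of replicate 1, 4 a region of replicate 2 and 3 neither, where the cluster was in neither.

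Averaged over the 4 clusters, 33.6% of stretches were in regions of replicate 1 and 40.5% of replicate 2, and 2 of the 4 clusters were in each. Both replicates held 22.5% of stretches and 1 of 4 clusters, and either held 51.6% and 3 of 4. With 4 clusters, a difference between the clusters and their stretches was not detectable, and chance was not tested. The mean over both replicates was 37.1%, and 35.2% when at least 50% of a stretch had to be covered. When only genes other than members set the density of a cluster, the mean was 21.4%. Some of the stretches were themselves receptor clusters, with mostly receptor genes in 32 of 248, 23 of 236, 77 of 582 and 1 of 8.

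**Figure D5:**
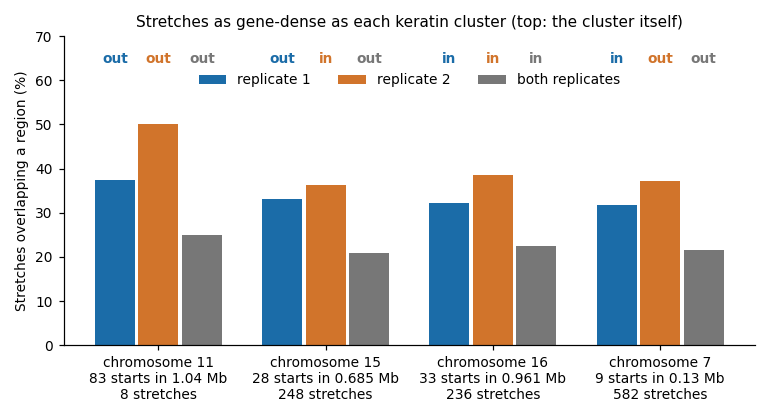
Share (%) of stretches with the length and gene density of each keratin cluster that overlap a region of replicate 1 (blue), replicate 2 (orange) or both (grey), with the call of the cluster itself written above. Between 31.8% and 50.0% of the stretches are in a region of a given replicate, and 2 of the 4 clusters are in each replicate.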

How the data were processed

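Enzyme-based 4C-Seq from the enhancer upstream of Pou5f1 was examined in 2 replicates of 1 group. The authors selected reads by the bait primer at their start, aligned what followed to mm9 with BWA (version not given in the sources used here) and assigned them to HindIII sites. Off the bait chromosome they scored windows of 500 HindIII sites and took a false discovery rate from permutations, separately in each replicate. The deposited regions off chromosome 17 hold a median of 734 reference motifs. The deposited files give only positions, so depth, and the reads needed to list a site, are unknown. Calls extend over whole windows of a few Mb, so a call says nothing about single genes within a window, and the site list does not separate the replicates. The study calls the samples biological replicates, but separate cultures are not stated, so the SD may be technical.

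Starts were counted from 1 and genes taken from GENCODE M1, which uses the same assembly (NCBIM37). Overlap of at least 1 bp with a gene body counted as in a region, and distance was 0 on overlap. Sites were placed by their first base, and all 1806 began at a HindIII motif. Stretches of equal density were scanned from 3 Mb in steps of 10 kb. Shares have exact (Clopper-Pearson) 95% intervals, and the limit of a count of 0 is 3 counts. No test was made, since the design has 1 group. Python 3.11.15, pandas 2.3.3, numpy 2.4.6 and scipy 1.17.1 were used, and the counting of overlaps was tested on simulated data. The members and gene lists were chosen with earlier results of these data known. The lists were the desmosome plaque and plakins, other intermediate filaments, cornified envelope and hair regulators, the epidermal differentiation complex (55 of 56 symbols found), Hox genes, olfactory and vomeronasal receptors, beta-defensins, kallikreins and histone genes. Named genes were Krt1, Krt5, Krt8, Krt10, Krt14, Krt18, the first and last members of a locus and those nearest to a region, the first 10 members in a region, and the genes next to a locus. Others were named after their values were seen.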

Additional observations from a re-analysis of the deposited data

How the results depend on the processing

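Of 35 alternatives, 29 moved a value by less than its spread between replicates or its interval, and 6 moved it more. Leaving out 1 of 2 replicates always moves a mean by less than the SD, so those alternatives could only fall among the 29. The member share had a wide SD (14.6), so 23.5% for Krt genes only and 47.8% for Krtap genes only also fell there. The count of 29 therefore does not show that the values are stable. No paired analysis was possible because there is 1 group. The mean share of members in regions was 52.6% with regions widened by 1 Mb, beside 35.1%. With 1 value for each cluster, the median distance to a region was 0.0 Mb, beside 0.927 Mb, and it was 0.281 Mb for Krtap genes only and 0.895 Mb for Krt genes only. The mean share of equally dense stretches in regions, 37.1%, was 32.2% with a tolerance of 50%, 43.9% on the cluster's own chromosome and 21.4% when only genes other than members set the density. With a tolerance of 10%, no stretch matched chromosome 11. Motifs in the 4 clusters numbered 309.0 per Mb, or 277.0 with unique flanks only. Leaving out a replicate gave 24.7% to 45.4% of members, 0.335 to 1.52 Mb, 33.6% to 40.5% of stretches and 17.9% to 20.2% of all genes. The causes were not tested. Chosen after seeing the data were a wider list of 101 genes, with 4 that RefSeq lists under other Krt or Krtap symbols (35.2%), a bound on density from below only, and unique flanks and a wider span (0.258% of motifs listed) on chromosome 16. With unknown depth, 2 replicates and 5 loci, no small difference could be seen.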
